A study of Mus musculus with 65 samples.

Results

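Extracellular matrix and heparan sulfate genes were followed in progenitors of the ventral neural tube made from mouse embryonic stem (ES) cells. The genes were chosen by name, as the laminin, collagen, proteoglycan, matricellular, integrin and sulfatase genes of the expression table, by a rule that uses no values. There were 47 of them among 25239 genes in all, and all 47 were found. Of these, 45 had a mean of at least 10 normalised reads over the libraries and were tested with 13964 genes. Lama4 and Col9a1 fell below that mean. The list was drawn up with earlier results of these data known, so its shares beside those of all genes are descriptions.

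The study used HM1, an unmodified ES cell line, so every group shared its genotype. Cells freed of feeder fibroblasts were grown on Matrigel, a protein gel that itself contains laminin and collagen IV, and became neuromesodermal progenitors (NMPs) by day 3 without SAG. From day 3 on, every culture received retinoic acid with 0, 10, 100 or 500 nM SAG, a Smoothened agonist that stands in for Sonic hedgehog (Shh). On days 4, 5 and 6 cells were fixed, stained for transcription factors, gated for the progenitor protein SOX2 and sorted as p3 (NKX2.2 without OLIG2), pMN (OLIG2), p2 (NKX6.1 with PAX6) or p0-1 (PAX6 without NKX6.1), in ventral to dorsal order, and RNA of the sorted pools was sequenced. NMPs gave 3 libraries at 0 nM. The p0-1 cells came from 0 and 10 nM, p2 from 10 and 100 nM, and pMN and p3 from 100 and 500 nM SAG. These 25 groups of day, cell type and concentration held 65 libraries, at most 3 in a group. The study describes its replicates as independent differentiations and sorted several cell types from 1 dish, so libraries of different cell types are not all independent of each other. The day 4 groups of p3 (100 nM) and p2 (10 nM) consisted of a single library. Totals ran from 7615114 to 13484815 reads, and the 47 genes took 0.389 to 1.06% of the normalised reads (median 0.595%).

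The labelled cell types were checked against genes of the sort. On day 6 Nkx2-2 averaged 276.2 normalised reads in p3 and at most 4.28 in the other types, and Olig2 averaged 4468 in pMN, 984.2 in p3 and 0.153 in p0-1. Dbx1, a gene of p0 progenitors, averaged 2869 in p0-1 and was at 0 in p3. NMPs had 2407 reads of T and 816.6 of Pou5f1. On days 5 and 6 the summed levels of markers of fibroblasts, paraxial mesoderm, neural crest and endothelium stayed at or below 542.7 normalised reads in every library. The highest was a fibroblast sum in a day 6 p3 library. Fibroblast sums averaged 73.1 in p3, 62.0 in pMN, 11.9 in p2 and 12.5 in p0-1 over both days. Endothelium sums averaged 95.6, 70.1, 126.4 and 15.3 in this order. Paraxial mesoderm sums averaged 112.7 to 158.5 across these types, and neural crest sums 29.4 to 64.2. The part of such cells in the results below was not tested.

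The extracellular matrix around neural progenitors contains a basement membrane, in which laminin and collagen IV networks are linked by nidogens and by heparan sulfate proteoglycans. Integrins are the receptors through which cells hold on to this matrix. Heparan sulfate chains, carried by syndecans and glypicans at the cell surface and by perlecan and agrin in the matrix, bind Shh, Wnt, FGF and BMP proteins, and the sulfatases Sulf1 and Sulf2 remove 6-O-sulfate groups from them. In the ventral spinal cord Sulf1 and glypicans are known as modulators of the Shh signal.

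Col4a1 and Col4a2 encode the chains of the main collagen IV network and lie head to head on opposite strands of chromosome 8. Their first exons overlap in the deposited annotation by 22 bases, which matters here because the counting is not stated to use strand, so reads of that stretch could not be told apart. The stretch is shown from RefSeq in build GRCm38.p6 (mm10) on the plus strand, with the shared bases in capitals.
Col4a1 and Col4a2, chr8:11312801-11312830: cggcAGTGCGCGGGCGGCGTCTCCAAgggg
The stretch is 80.0% G or C. The exons of Col4a1 span 6632 bases and those of Col4a2 6450, so the shared bases are a small part of either gene. Further antisense overlaps were listed, of 230 bases between Col9a3 and Tcfl5 and of 386 bases between Nid2 and Rtraf.

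Promoters are shown for Gpc3, a gene called higher in p3 than in each other cell type, and for Sparc, called higher in p3 against p2 alone, whose base composition differs. Each sequence holds the 250 bases before the RefSeq start, 5′ to 3′ on the gene's strand (minus in each case). The GC box GGGCGG or its reverse complement CCGCCC is in capitals.
Gpc3, chrX:52613975-52614224: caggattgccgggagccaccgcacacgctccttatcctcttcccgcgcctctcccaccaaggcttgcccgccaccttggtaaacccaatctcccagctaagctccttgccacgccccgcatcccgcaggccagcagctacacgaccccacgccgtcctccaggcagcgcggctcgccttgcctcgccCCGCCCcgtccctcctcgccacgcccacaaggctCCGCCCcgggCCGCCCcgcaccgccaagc
Sparc, chr11:55420081-55420330: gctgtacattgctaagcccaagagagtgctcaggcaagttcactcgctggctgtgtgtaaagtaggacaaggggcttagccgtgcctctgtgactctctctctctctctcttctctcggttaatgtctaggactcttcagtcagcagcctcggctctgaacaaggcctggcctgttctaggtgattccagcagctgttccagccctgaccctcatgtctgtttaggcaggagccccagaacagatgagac
The Gpc3 stretch is 71.6% G or C with 3 GC boxes, and the Sparc stretch is 54.0% G or C with 0. RefSeq promoters of 300 bases were listed for 33 of the 47 genes, 39 promoters in all, and a GC box stood on either strand in 30 of them, against 35.66% of 32851 promoters. The letters TATAAA were found in 3 of the 39, those of Col3a1, Ncan and Sulf2, against 13.62% of all promoters. The forkhead motif TGTTTAC, present in 3.65% of all promoters, and the GLI motif GACCACCCA, present in 0.2527%, were found in 0 of the 39, which says only that these letters are not in these windows.

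The genes covered a wide range of levels. Per kilobase of exon and averaged over the 65 libraries, Col18a1, the collagen XVIII core protein that carries heparan sulfate and yields endostatin, was highest at 1741 normalised reads. It was followed by Gpc3, the X-linked glypican 3, at 1532 and by Sparc, a collagen-binding matricellular protein, at 1180. The integrin subunit Itgb1, partner of most matrix-binding alpha chains, was at 994.5 and Sulf2 at 981.3. Among laminins Lama1 was highest at 276.1, among secreted proteoglycans Agrn (agrin) at 232.0, and among fibrillar collagens Col2a1 at 90.32. In all, 24 of the 47 genes lay above the median of tested genes, 101.0 normalised reads per kilobase. At the other end, fibrillar collagens of connective tissue were scarce, with Col3a1 at 6.022 and Col1a1 at 3.813 per kilobase. Col9a1 had reads in 1 of 65 libraries and Lama4 in 7. The order differed between groups, since Sparc led in NMPs with a mean of 2269 per kilobase (Col18a1 759.5) and Gpc3 led in p3 on day 6 with 4506 (Col18a1 2965). Reads were present in every library for 27 genes, and 20 were at 0 in at least 1 library.

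**Figure D1:**
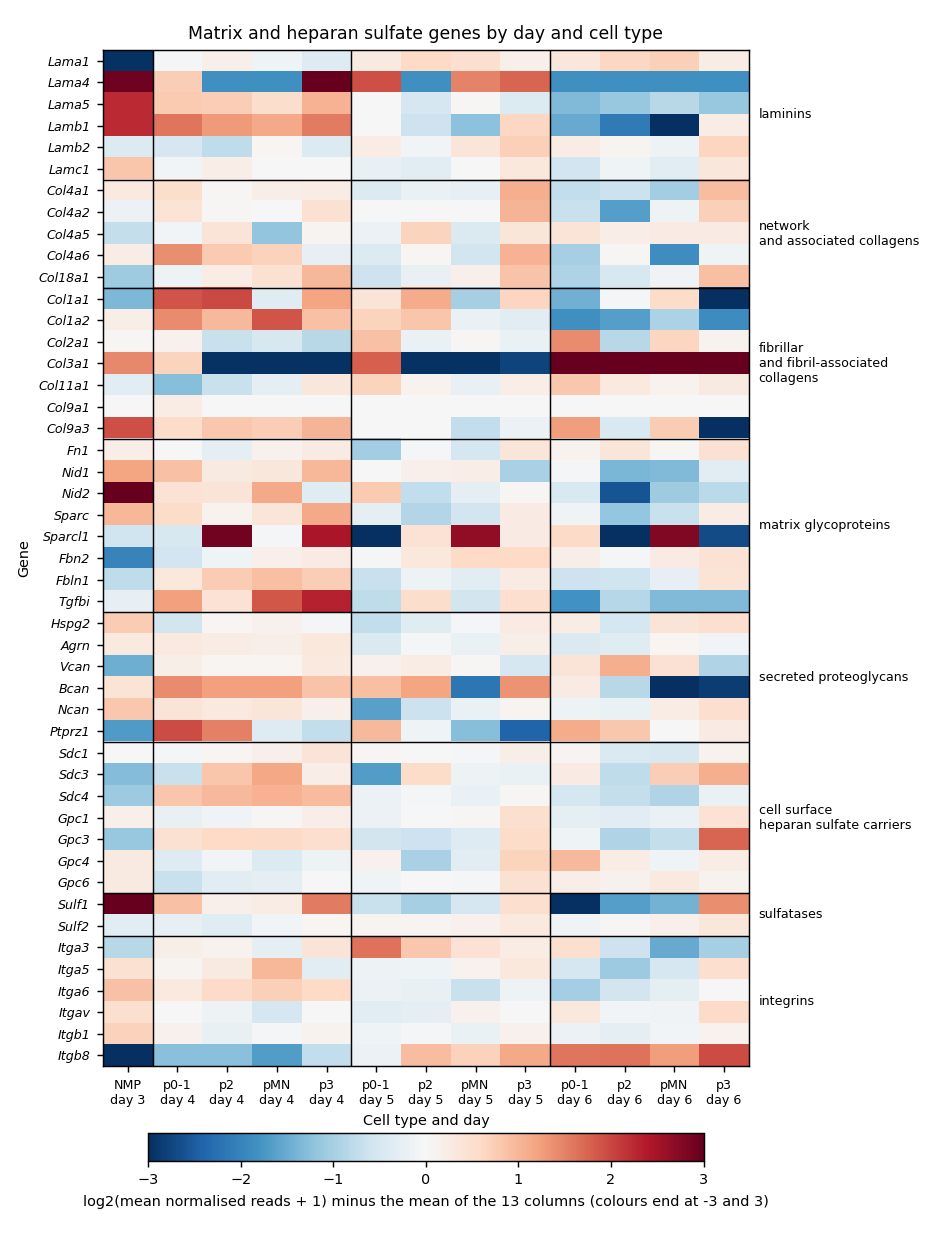
Mean level of each of the 47 genes (rows, in blocks by role) in each cell type and day (columns). Colour gives log2(mean normalised reads + 1) minus the mean over the 13 columns, ending at −3 and 3. Lama1 is lowest and Nid2 and Sulf1 are highest in NMPs, Gpc3 is highest in p3 on day 6, and rows of genes with few reads (Col3a1, Sparcl1, Lama4) vary from column to column.

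To ask which of these genes separated the most ventral progenitors from their neighbours, p3 was compared with each other type over days 5 and 6. A gene was called at a limma adjusted p below 0.01 with a change of more than 2-fold, and changes are differences of mean log2(value + 1). Against p0-1, 4 of 45 genes were higher in p3 (Sulf1, Col4a1, Col18a1 and Gpc3) and 1 was lower (Itga3), where 0.888% and 0.537% of all genes were called higher and lower. Against p2, 5 were higher (Gpc3, Col4a2, Col4a1, Sparc and Col18a1) and 1 was lower (Vcan), where 0.723% and 0.551% of all genes were called. Against pMN, 3 were higher (Lamb1, Col4a1 and Gpc3) and 0 lower, with 0.38% and 0.315% of all genes called in these directions. An unadjusted limma p below 0.05 was reached by 20 of the 45 genes (44.4%) against p0-1, 18 (40.0%) against p2 and 15 (33.3%) against pMN, where 15.9%, 17.6% and 11.3% of all genes reached it. The median log2 change of the 45 genes was 0.43 against p0-1, 0.41 against p2 and 0.38 against pMN, beside all-gene medians of −0.07, 0.00 and −0.09. The 3 comparisons share the 11 p3 libraries. As the list was drawn up with earlier results known, its shares beside all genes are no independent test. A fit of only the compared libraries left the changes as they were but ended 7 of these calls, those of Sulf1 (adjusted p = 0.0899) and Gpc3 (0.0111) against p0-1, of Col4a2 (0.137), Col4a1 (0.0169) and Sparc (0.0311) against p2, and of Lamb1 (0.129) and Gpc3 (0.0146) against pMN. In RNA of sorted pools, fewer cells with a transcript and less of it per cell cannot be told apart.

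**Figure D2:**
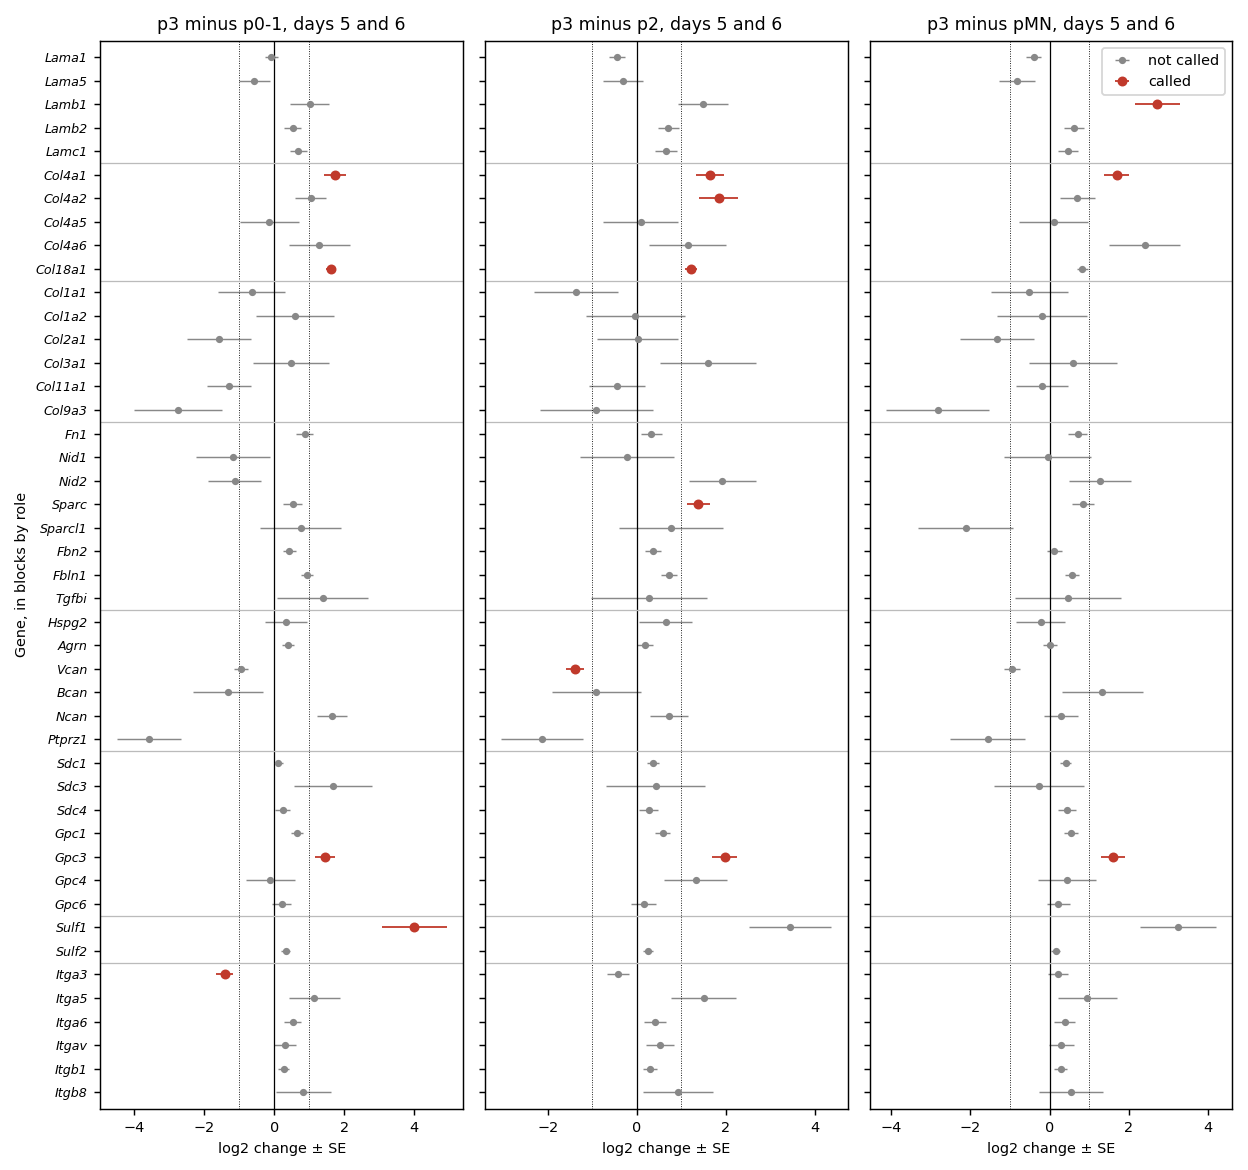
Log2 change ± SE (x axis) of the 45 tested genes (y axis, in blocks by role) between p3 and each other cell type over days 5 and 6, with called genes in red and dotted lines at 2-fold. Col4a1 and Gpc3 are called to the right in all 3 panels, Col18a1 in the panels for p0-1 and p2, and Vcan (against p2) and Itga3 (against p0-1) to the left.

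Among the 5 network and associated collagens, 2 were called higher in p3 than in p0-1, 3 than in p2 and 1 than in pMN, and none was called lower. Col18a1 (chromosome 10, 77052179 to 77166530, minus strand) ran from 10545 to 24233 normalised reads in the 11 p3 libraries with a median of 15457. Its range was 5965 to 11939 (median 10198) in pMN, 4850 to 11230 (median 7289) in p2 and 3648 to 7256 (median 5402) in p0-1. All p3 libraries lay above all p0-1 libraries, while p3 and p2 overlapped through single libraries. The change was 1.62 (SE 0.14, adjusted p = 3.68e-12) against p0-1 and 1.21 (SE 0.14, adjusted p = 4.66e-08) against p2, and these calls held in all 75 alternatives. Against pMN it was 0.83 (SE 0.14, adjusted p = 0.000269), short of 2-fold. Further dorsally, pMN was above p0-1 by 0.80 (SE 0.14, adjusted p = 0.000176), again short of 2-fold. The difference was 0.39 between pMN and p2 (adjusted p = 0.257) and 0.41 between p2 and p0-1 (adjusted p = 0.243), so these neighbours did not differ beyond the threshold.

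Col4a1 (chromosome 8, 11198423 to 11312826, minus strand) had 1231 to 4745 reads in p3 (median 2409), 279 to 1929 in pMN (median 774), 146 to 2211 in p2 (median 734) and 127 to 1461 in p0-1 (median 878). In 11 of 11 p3 libraries it lay above the median of each other type, although the ranges overlapped. The change was 1.74 (SE 0.32, adjusted p = 0.000233) against p0-1, 1.65 (SE 0.32, adjusted p = 0.000745) against p2 and 1.69 (SE 0.33, adjusted p = 0.00121) against pMN. Without day 6 p3 (500 nM) replicate 3, the library with the highest value, the changes were 1.41 against p2 and 1.45 against pMN with adjusted p-values of 0.0118 and 0.0202, so both calls ended. Day 5 alone gave changes of 1.41 against p2 (adjusted p = 0.066) and 1.55 against pMN (adjusted p = 0.0353), and the call against p0-1 held there (adjusted p = 0.00826).

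Col4a2 (chromosome 8, 11312805 to 11449287, plus strand) reached 4469 reads in p3 but also had 167 in replicate 1 at 100 nM on day 6 (median 2822). In p2 it ran from 5.52 to 2025 (median 590). The change against p2 was 1.84 (SE 0.43, adjusted p = 0.00696), with 10 of 11 p3 libraries above the p2 median. Col4a2 was not called against p0-1 or pMN. On day 5 alone the change was 1.06 with an adjusted p of 0.131, and without the filter on low values the adjusted p was 0.0139. The call also ended when any of 12 libraries was left out, with adjusted p-values from 0.0101 to 0.0485. On day 5 these were replicates 1 and 2 of p3 at 100 and at 500 nM, replicates 1 and 2 of p2 at 100 nM and replicate 2 of p2 at 10 nM. On day 6 they were replicates 2 and 3 of p3 at 100 nM, replicate 3 of p3 at 500 nM, and replicates 1 and 3 of p2 at 10 nM. Although both genes start in the shared stretch shown above, their log2 levels had a Pearson correlation of 0.26 over the 46 libraries of days 5 and 6, beside 0.69 for Col4a1 with Col18a1. These values describe libraries that also differ in depth and cell type. Of the minor chains, Col4a6 had a change of 2.40 between p3 and pMN (SE 0.90, adjusted p = 0.217), which did not pass, and Col4a5 had changes with an SE larger than their size.

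Of the 7 cell surface carriers of heparan sulfate, only Gpc3 was called, and it was called in all 3 comparisons. Gpc3 (chromosome X, 52272427 to 52613974, minus strand) binds Hedgehog ligands and restrains the signal at the cell surface. In p3 on day 5 it had 7715, 1273 and 5114 reads at 100 nM and 5554, 2316 and 4870 at 500 nM. On day 6 it had 4038, 9724 and 11899 at 100 nM and 7715 and 17731 at 500 nM. Day 6 p3 averaged 10220 ± 5098 (SD, n = 5). On the same day p0-1 averaged 2790 ± 1121 and p2 1614 ± 1205 (SD, n = 6 each), and pMN averaged 1843 ± 885.7 (SD, n = 5). All day 6 p3 libraries lay above those of p2, which reached 3895, and of pMN, which reached 3107, while the p0-1 range ended at 4040, just above the lowest p3 library. Over both days the change was 1.97 (SE 0.29, adjusted p = 4.96e-06) against p2, 1.61 (SE 0.29, adjusted p = 0.000611) against pMN and 1.44 (SE 0.29, adjusted p = 0.000843) against p0-1. On day 5 alone it was 1.05, 0.74 and 1.01, with adjusted p-values of 0.206, 0.486 and 0.148. The glypicans Gpc1, Gpc4 and Gpc6 and the syndecans Sdc1, Sdc3 and Sdc4 did not pass in any of these comparisons, and Gpc1 had changes of 0.54 to 0.66 (adjusted p = 0.0184 to 0.146).

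The sulfatases parted. Sulf2 (chromosome 2) was abundant everywhere and had changes of 0.15 to 0.32 between p3 and the other types, which did not pass. Sulf1 (chromosome 1, 12692430 to 12860372, plus strand) had 0 to 747 reads in p3 (median 373) and 0 to 226 in p0-1 (median 29.1). The change was 3.99 (SE 0.93, adjusted p = 0.00545), with 10 of 11 p3 libraries above the p0-1 median. On day 6 its p3 values were 378, 676 and 435 at 100 nM and 219 and 747 at 500 nM, while the 6 p0-1 libraries reached at most 47.8. Against p2 and pMN its changes were 3.44 and 3.25 (adjusted p = 0.0214 and 0.074), which did not pass with limma. Against p2 the gene was called with edgeR (change 4.33, adjusted p = 0.00705), with a pseudocount of 10 (0.00359) and with DESeq2, and against pMN with DESeq2. Without day 5 p3 (500 nM) replicate 2 both differences were called (0.00202 and 0.00653). The call ended without any of 9 libraries, with adjusted p-values from 0.01 to 0.0267. These were, of p0-1, replicate 1 at 0 nM on days 5 and 6, replicates 1 and 2 at 10 nM on day 5 and replicates 2 and 3 at 10 nM on day 6, and, of p3 at 500 nM, replicates 1 and 3 on day 5 and replicate 3 on day 6. It also ended on day 5 alone (change 1.83, adjusted p = 0.594), with array weights (0.0116) and with edgeR (0.0377).

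Of the 5 tested laminin chains, Lamb1 was called higher in p3 than in pMN and none was called against p2 or p0-1. Lamb1 (chromosome 12, 31265293 to 31329644, plus strand), the laminin beta-1 chain of early basement membranes, ran from 16.1 to 1384 reads in p3 (median 688) and from 2.93 to 371 in pMN (median 107), a change of 2.72 (SE 0.57, adjusted p = 0.00378). On day 5 the 500 nM p3 libraries had 1286, 950 and 1384 reads and the 100 nM libraries 235, 152 and 688, so the lower p3 values overlapped pMN. Lamb1 lost its call when single day 6 libraries were left out, namely p3 (100 nM) replicate 3 (adjusted p = 0.0109), p3 (500 nM) replicate 3 (0.0329), pMN (100 nM) replicate 1 (0.0119) or pMN (500 nM) replicate 3 (0.0503), and on day 5 alone (change 1.63, 0.042). Lama1, the alpha-1 chain, was not called between any pair of cell types.

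Of the 8 matrix glycoproteins, Sparc (chromosome 11, 55394159 to 55420080, minus strand) was called higher in p3 against p2, and none was called against pMN or p0-1. Sparc ran from 1444 to 5871 reads in p3 (median 3268) and from 268 to 2833 in p2 (median 1516). The change was 1.38 (SE 0.27, adjusted p = 0.000769), with 10 of 11 p3 libraries above the p2 median. On day 5 alone the change was 1.19 with an adjusted p of 0.0304. Fbln1, the basement membrane protein fibulin-1, was higher in p3 than in p0-1 by 0.93 (SE 0.17, adjusted p = 0.000269) and than in p2 by 0.72 (SE 0.17, adjusted p = 0.00741), both short of 2-fold.

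Vcan went the other way among the 6 secreted proteoglycans. Versican (Vcan, chromosome 13, 89655310 to 89742512, minus strand) is a large chondroitin sulfate proteoglycan that binds hyaluronan. It had 664 to 2137 reads in p3 (median 1401) and 1510 to 6740 in p2 (median 3422). The change was −1.39 (SE 0.20, adjusted p = 3.11e-06), with 11 of 11 p3 libraries below the p2 median. On day 5 alone it was −0.75 with an adjusted p of 0.315. Day 6 p2 averaged 4661 ± 1519 (SD, n = 6) and day 6 p3 1157 ± 400 (SD, n = 5), and on that day the ranges did not overlap. Vcan was also lower in p3 than in pMN by −0.95 (SE 0.20, adjusted p = 0.00446) and than in p0-1 by −0.93 (SE 0.20, adjusted p = 0.00188), short of 2-fold. Against pMN it was called with array weights (change −1.055, adjusted p = 0.000855) and with quantile normalisation (−1.008, 0.00182). Against each of pMN and p0-1 it was called with some single libraries left out. Ptprz1, a receptor phosphatase that carries chondroitin sulfate, had a change of −3.57 between p3 and p0-1 (SE 0.92, adjusted p = 0.0143), and Ncan (neurocan) one of 1.65 (SE 0.42, adjusted p = 0.015), neither of which passed. Both were called with a pseudocount of 10 (adjusted p = 0.0017 and 0.00299), with quantile normalisation (0.00545 and 0.00444) and with some single libraries left out, and Ncan also with DESeq2 (0.00078).

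Itga3, the laminin-binding integrin alpha-3 chain (chromosome 11, 95044475 to 95076811, minus strand), was the only integrin called between cell types and was highest in p0-1. On day 5 the p0-1 libraries had 11806, 6876 and 8722 reads at 0 nM and 8777, 7704 and 5044 at 10 nM. Over days 5 and 6 p0-1 ran from 1485 to 11806 (median 5585), p2 from 466 to 5799 (median 2873), pMN from 442 to 4184 (median 2618) and p3 from 741 to 4136 (median 2026). The change was −1.41 in p3 (SE 0.24, adjusted p = 0.000116) and −1.63 in pMN (SE 0.24, adjusted p = 1.01e-05) against p0-1. All 11 libraries of p3 and all 11 of pMN lay below the p0-1 median, though the ranges overlapped, also within day 6, and these calls held in all 75 alternatives. Between p2 and p0-1 the change was −0.997 (SE 0.24, adjusted p = 0.0235).

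**Figure D3:**
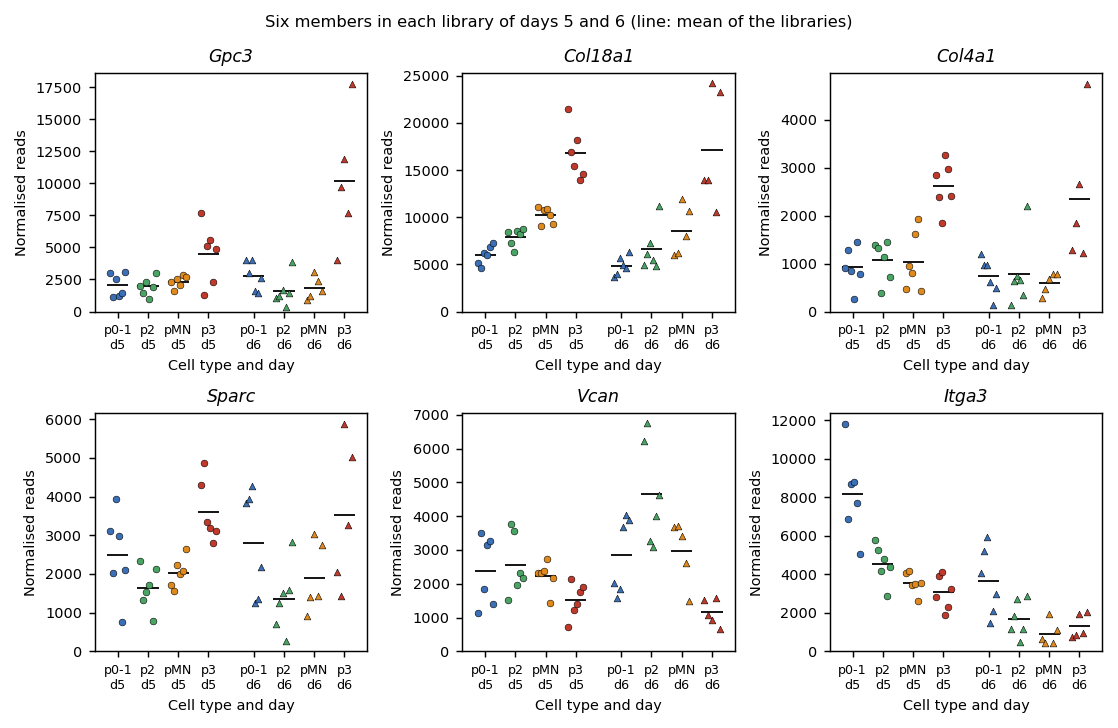
Normalised reads (y axis, from 0) of Gpc3, Col18a1, Col4a1, Sparc, Vcan and Itga3 in each library of days 5 (circles) and 6 (triangles) by cell type (x axis), with the mean as a line. Col18a1 of p3 lies above all p0-1 libraries, Gpc3 of p3 is highest on day 6 with 17731 reads in 1 library, Vcan is highest in p2 on day 6, and Itga3 is highest in p0-1 on day 5.

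Genes of other cell types moved with the p3 libraries and are given beside these results. The summed level of 7 floor plate genes (Shh, Foxa2, Ntn1, Spon1, Slit2, Ferd3l and Nkx2-9, some of which p3 progenitors also express) was 4325 to 9953 in p3 on day 5 and 9322 to 24120 on day 6. In the other types it was at most 3402 on day 5 and 4821 on day 6. The highest sum was that of day 6 p3 (500 nM) replicate 3, which also had the highest Gpc3, Col4a1 and Col4a2. Shh averaged 582.9 in p3 on day 6 and at most 13.5 in the other types that day. The sum of 7 genes of primitive and parietal endoderm, which make much laminin and collagen IV, was 377.8 to 886.4 in p3 on day 5 and 248.1 to 2442 on day 6. In the other types it was at most 432.2 and 264.7 on these days. In p3 on day 6 this sum averaged 1002, of which Dab2 and Foxa1 made up most, averaging 664.9 and 243.1. Sox7, Gata6 and Cubn made up the rest, as Sox17 and Gata4 were at 0 in every p3 library of day 6. Neuronal genes were at similar sums in p3 (3741 to 5613), p2 (3221 to 5812) and pMN (2800 to 8742) on day 6 and lower in p0-1 (1542 to 2827). The part of floor plate cells, of Dab2 and Foxa1 expressing cells or of neurons in these differences was not tested.

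Between the other cell types few of these genes differed. Between pMN and p2, 0 of 45 were called with limma and 0 with edgeR, where limma called 0.107% of all genes in either direction. DESeq2 called 2 of the 45, but it also called 587 among all genes. An unadjusted limma p below 0.05 was reached by 7 (15.6%), beside 10.6% of all genes. The lowest adjusted p-values were those of Col18a1, of Col4a2 (change 1.14, SE 0.43, adjusted p = 0.282) and of Itga3 (−0.63, SE 0.24, adjusted p = 0.301). Between pMN and p0-1, Itga3 was the only gene called, lower in pMN, where 0.645% and 0.315% of all genes were called higher and lower, and 11 genes (24.4%) had an unadjusted p below 0.05 beside 11.7% of all genes. Ncan had a change of 1.36 (SE 0.42, adjusted p = 0.088) there. Between p2 and p0-1, 0 genes were called with limma and 0 with edgeR, where limma called 0.322% of all genes in either direction. DESeq2 called 4 of the 45, but it also called 632 among all genes. An unadjusted limma p below 0.05 was reached by 9 (20.0%), beside 8.16% of all genes. Nid2, a nidogen, had a change of −3.05 (SE 0.74, adjusted p = 0.027), with a mean of 91.6 ± 85.2 reads in p2 and 297.1 ± 188 in p0-1 (SD, n = 12 each). It was called with DESeq2 (0.0083) and without day 5 p3 (100 nM) replicate 2 (0.00642), day 6 p2 (100 nM) replicate 2 (0.00308) or day 6 p2 (10 nM) replicate 2 (0.00836). Itga3 was called without day 6 p2 (100 nM) replicate 3 (0.00266). Sparc was at −0.86 (SE 0.26, adjusted p = 0.162).

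The matrix genes were then followed in time, starting from the step between NMPs and day 4, over which retinoic acid, and in most cultures SAG, acted. Averaged over the 8 day 4 groups, 7 of 45 genes were higher than in NMPs and 0 were lower, where 1.32% and 2.18% of all genes were called. With a median of −0.07 the 45 genes stood beside a median of −0.40 over all genes. Markers of other cells moved over the same step. The summed paraxial and presomitic mesoderm genes averaged 2552 reads in NMPs and 102.1 to 234.9 in the day 4 types, and the pluripotency genes 1088 and 4.17 to 54.6, and their part in the changes was not tested. The 3 NMP libraries carry this comparison, since they enter on 1 side of it.

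Lama1 (chromosome 17, 67697265 to 67822645, plus strand), the alpha chain of laminin-111, the first laminin of the embryo, had 211, 232 and 398 reads in NMPs and 761 to 3283 on day 4 (median 2030). The libraries did not overlap, and the change was 2.83 (SE 0.28, adjusted p = 3.12e-11). Sdc4, a syndecan of focal adhesions, had 529, 473 and 269 reads in NMPs and 1004 to 2220 on day 4, a change of 2.11 (SE 0.33, adjusted p = 5.89e-06). Fbn2, the microfibril protein fibrillin-2, had 429, 221 and 268 reads and then 560 to 1982, a change of 1.89 (SE 0.28, adjusted p = 2.15e-06). All day 4 libraries lay above all NMP libraries for these genes and also for Gpc3, Vcan, Col18a1 and Fbln1. The share of all genes that part in this way was not counted, so nothing particular to these genes is read from it.

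Gpc3 had 1100, 1830 and 1178 reads in NMPs and 2893 to 6301 on day 4, a change of 1.71 (SE 0.43, adjusted p = 0.00768). Its call ended with edgeR (adjusted p = 0.0144), when any NMP library was left out (adjusted p = 0.0816, 0.0199 and 0.0698 for replicates 1, 2 and 3) and without the day 4 replicate 3 of p0-1 (0 nM, 0.0121), p2 (100 nM, 0.0119), p2 (10 nM, 0.0116) or pMN (500 nM, 0.0106). Vcan had 665, 808 and 876 reads and then 977 to 5103, a change of 1.45 (SE 0.30, adjusted p = 0.000646), and its call ended without NMP replicate 1 (0.0171). Col18a1 had 4376, 4048 and 4771 reads and then 6296 to 22502, a change of 1.44 (SE 0.21, adjusted p = 1.76e-06). Fbln1 was the remaining called gene, with a change of 1.42 (SE 0.26, adjusted p = 0.000105). On day 4 Col18a1 was already highest in p3, at 18580 ± 3215 (SD, n = 4) against 8305 ± 1520 in p0-1 (SD, n = 5), while Gpc3 and Col4a1 were not, with day 4 differences between p3 and p0-1 of 0.06 and −0.47.

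Several genes were highest in NMPs without passing the threshold in the limma fit of all libraries. Nid2 had 2183, 3478 and 2772 reads in NMPs and averaged 188.3 to 536.1 in the day 4 cell types, a change of −4.19 (SE 1.15, adjusted p = 0.0154), and it was called with edgeR (0.000887), with DESeq2 (5.7e-05) and with a pseudocount of 10 (0.000765). Sulf1 had 2163, 3674 and 2364 reads and averaged 206.9 to 547.3 on day 4, with −3.14 (SE 1.405, adjusted p = 0.214). Lama5, the alpha-5 chain of later laminins, averaged 5380 ± 920 (SD, n = 3) in NMPs and 1623 to 2319 in the day 4 types, with −1.60 (SE 0.67, adjusted p = 0.175). In a fit of NMP and day 4 libraries alone Sulf1 (3.36e-05), Lama5 (0.000165) and Nid2 (0.00104) were called, and with array weights likewise (0.00797, 0.000154 and 4.36e-06). The day 4 group of p3 at 100 nM, with 1 library, had 0 reads of Nid2.

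**Figure D4:**
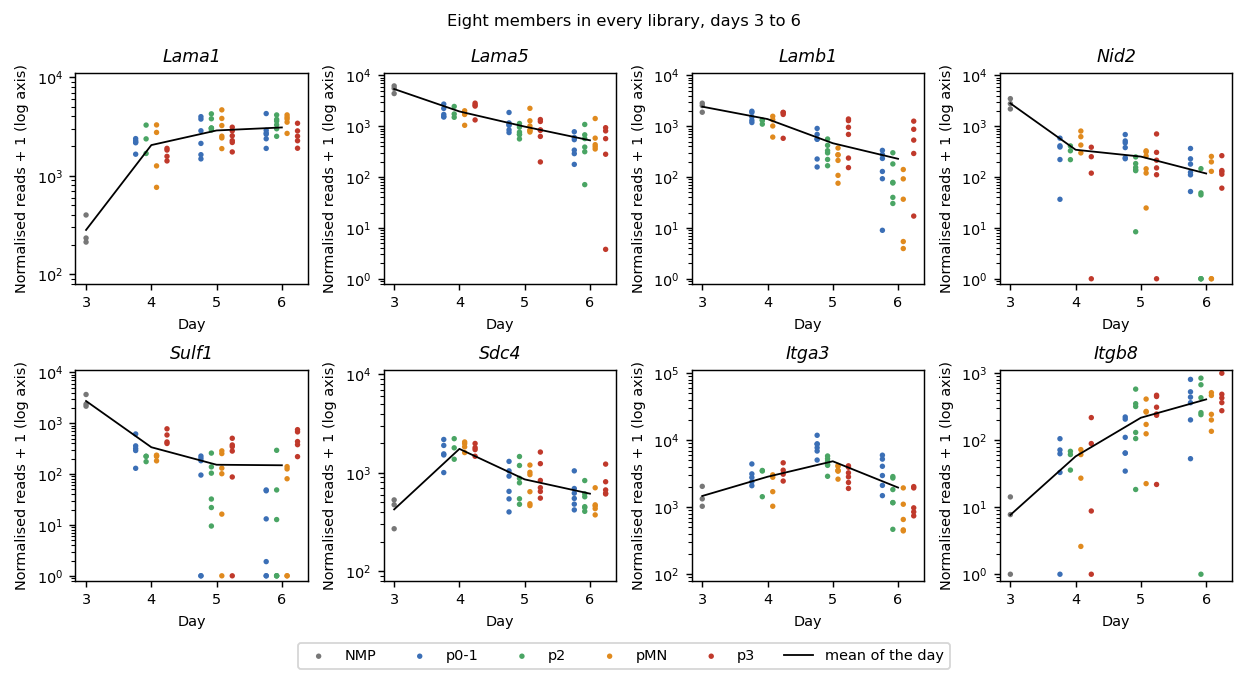
Normalised reads + 1 (y axis, log scale) of 8 genes in every library by day (x axis), coloured by cell type, with a line through the mean of each day. Lama1 and Sdc4 rise between days 3 and 4, Lamb1 and Lama5 decline towards day 6, Itga3 is highest on day 5, and Itgb8 goes from 0 to 13.2 reads in NMPs to means of 309.3 to 507.0 in the cell types of day 6.

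Between days 4 and 5, averaged over cell types and concentrations, 1 gene rose (Itgb8) and 2 fell (Lamb1 and Sdc4), where 3.1% and 1.2% of all genes were called. Itgb8, the integrin beta-8 chain, which with the alpha-v chain binds latent TGF-beta, had 13.2, 6.75 and 0 reads in NMPs. On day 4 it ran from 0 to 216 (median 59.9) and on day 5 from 17.4 to 575 (median 213). The change was 2.64 (SE 0.63, adjusted p = 0.00263), with 20 of 24 day 5 libraries above the day 4 median. Without day 4 p3 (100 nM) replicate 3, the only library of its group and at 0 for Itgb8, the change was 1.78 and its adjusted p 0.0907. Lamb1 dropped from 577 to 1968 on day 4 (median 1329) to 74.6 to 1384 on day 5 (median 313). The change was −1.77 (SE 0.45, adjusted p = 0.005), with 23 of 24 day 5 libraries below the day 4 median. Its call ended without day 4 pMN (500 nM) replicate 2 (0.0126). Sdc4 fell from a median of 1795 to 812 (−1.15, SE 0.17, adjusted p = 3.57e-06), with all 24 libraries below the day 4 median. Fbln1 (−0.90), Sparc (−0.94), Gpc3 (−0.89) and Itga6 (−0.88) had adjusted p-values of at most 0.00603 with changes short of 2-fold. The median of the 45 genes was −0.26, beside 0.01 over all genes.

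Between days 5 and 6, 1 gene rose (Col3a1) and 2 fell (Itga3 and Lamb1), where 0.501% and 0.351% of all genes were called. Summed neuronal genes went from means of 682.4 to 2224 in p0-1, 1679 to 4337 in p2, 1954 to 4657 in p3 and 2371 to 5659 in pMN over this step, and their part in the changes was not tested. Itga3 fell from a range of 1902 to 11806 (median 4160) to 442 to 5960 (median 1658), a change of −1.59 (SE 0.17, adjusted p = 1.1e-08), with 20 of 22 day 6 libraries below the day 5 median. Lamb1 fell again, from a median of 313 to 110 (−1.87, SE 0.39, adjusted p = 0.00219). By day 6 it averaged 54.8 ± 59.4 in pMN and 592 ± 485 in p3 (SD, n = 5 each), after 2420 ± 489 (SD, n = 3) in NMPs. Its call ended with edgeR (0.0176), when only day 5 and day 6 libraries were fitted (0.0142) and without day 6 pMN (500 nM) replicate 3 (0.0109). Col3a1, a fibrillar collagen of connective tissue, was at 0 in 48 of the 65 libraries. On day 6 it ran from 0 to 348 (median 43.5) and on day 5 from 0 to 158 (median 0), with 12 of 22 day 6 libraries above that median. Its change of 3.71 (SE 0.77, adjusted p = 0.00173) varied in size between alternatives, from 2.01 to 18.13, the latter with DESeq2. The median of the 45 genes was −0.17, beside 0.00 over all genes.

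SAG concentration was compared within each cell type over days 5 and 6. With limma and with edgeR, 0 of 45 genes were called in any of the 4 comparisons, beside 0.0143% of all genes in p0-1, 0.0358% in p2, 0.0% in pMN and 0.0286% in p3 in either direction. The genes with an unadjusted limma p below 0.05 numbered 10, 4, 3 and 6 in this order, which is 22.2%, 8.89%, 6.67% and 13.3% of the 45 beside 4.88%, 8.18%, 4.71% and 11.7% of all genes. In p0-1 the median log2 change of the 45 genes was −0.52, beside 0.00 over all genes. DESeq2 called 1, 4, 2 and 4 of the 45 genes, beside 424, 645, 442 and 665 among all genes.

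Between 10 and 0 nM in p0-1, Sparc had 760 to 2982 reads at 10 nM and 2023 to 4259 at 0 nM, a difference of −1.08 (SE 0.37, adjusted p = 0.72). The difference was −0.61 for Sdc1, a syndecan (SE 0.18, adjusted p = 0.482), and 0.71 for Vcan (SE 0.27, adjusted p = 0.842). In p2 the lowest adjusted p-values, 0.406 to 0.505, were those of Gpc4 (−2.65, SE 0.97), Itgb8 (−2.60, SE 1.08) and Bcan (−3.21, SE 1.37). In pMN, Nid2 (−4.39, SE 1.103, adjusted p = 0.476), Gpc6 (−1.14, SE 0.41, adjusted p = 0.88) and Sulf1 (−4.17, SE 1.35, adjusted p = 0.88) had the lowest adjusted p-values for 500 against 100 nM. In p3, Lama5 had 808 to 1350 reads at 500 nM and 2.79 to 846 at 100 nM, a difference of 2.30 (SE 0.65, adjusted p = 0.147), which was called without day 6 p3 (100 nM) replicate 3 (0.00563). Nid1 (4.25, SE 1.54) and Bcan (3.85, SE 1.45) had adjusted p-values of 0.266 and 0.288 there. DESeq2 called Bcan in p2 (fitted change −11.34, adjusted p = 1.49e-11) and p3 (11.37, 1.53e-10), Nid2 (−5.49, 4.93e-05) and Sulf1 (−11.87, 9.7e-17) in pMN and Nid1 in p3 (11.49, 7.44e-13). In each case 1 of the day 6 groups compared had 0 reads in all its 2 or 3 libraries, so these fitted sizes are no bounds. With limma and SEs of this size, several-fold differences between concentrations did not pass for genes with few reads. All-gene medians also differed between concentrations, by −0.14 in p2 and 0.33 in p3.

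Whether the difference between p3 and p0-1 changed between days 4 and 6 was tested as an interaction. With limma and edgeR 0 of 45 genes were called, while limma called 3.03% of all genes in either direction. DESeq2 called 5 of the 45, but it also called 2268 among all genes. An unadjusted limma p below 0.05 was reached by 9 of the 45 genes (20.0%), beside 15.2% of all genes. The lowest adjusted p-values were those of Lamc1, the laminin gamma-1 chain (1.76, SE 0.54, adjusted p = 0.0478), Col4a1 (2.30, SE 0.72, adjusted p = 0.0523) and Itga3 (−1.61, SE 0.56, adjusted p = 0.0919). Without day 4 p3 (100 nM) replicate 3, the only library of its group, their adjusted p was 1.0, 0.997 and 1.0, and the change of Lamc1 was 0.45. With array weights Lamc1 was called (0.00817), and DESeq2 called Lamc1 (0.00319) and Col4a1 (0.00286). That library also had the fewest detected genes, 9718, and the all-gene median of this interaction was 0.34.

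Further genes of matrix and heparan sulfate biology were taken from 4 lists. Of 28 genes of heparan sulfate synthesis and modification 21 were tested, and 1 was called between p3 and p2 and between p3 and p0-1. Hs3st3b1, a 3-O-sulfotransferase, was lower in p3 by −4.19 (SE 0.76, adjusted p = 0.000341) and −4.14 (SE 0.76, adjusted p = 0.000268). On day 6 it had 226.2 ± 222.5 reads in p3 (SD, n = 5), against 1108 ± 267.6 in p2 and 1133 ± 409 in p0-1 (SD, n = 6 each). Both calls ended with edgeR (changes −2.331 and −2.365, adjusted p = 0.0333 and 0.0328). They also ended when only the compared libraries were fitted (0.0494 and 0.0519). On day 5 alone the call against p2 ended (change −4.77, adjusted p = 0.0142). Ext1, which polymerises heparan sulfate, fell by 1.92 on the log2 scale between NMPs and day 4 (adjusted p = 0.00368) and rose by 1.42 to day 5 (adjusted p = 2.71e-05). Without day 4 p3 (100 nM) replicate 3, which had 4.39 reads of Ext1, these changes were −1.09 and 0.47 (adjusted p = 0.205 and 0.297), so both calls ended. Hs6st1, a 6-O-sulfotransferase, rose between NMPs and day 4 by 1.73 (adjusted p = 0.000264). Ext1 was also the only listed gene called in the interaction, at 3.80 (SE 0.68, adjusted p = 0.000101), and at 0.55 (adjusted p = 1.0) without that library.

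Of 39 other matrix proteins 26 were tested. Vtn (vitronectin) was higher in p3 than in each other type, with 390.9 to 4686 reads in p3 on day 6 and 0 in 5 of 6 p2 libraries and 5 of 6 p0-1 libraries of that day. Spon1 (F-spondin, also among the floor plate genes above) was higher in p3 than in p2 by 2.32 and than in p0-1 by 2.10 (adjusted p = 0.00229 and 0.0053). On day 5 alone its changes were 0.75 and 1.05 (adjusted p = 0.763 and 0.547). Col12a1 was higher in p0-1 than in p3, pMN and p2, with changes of −4.28, −4.14 and −4.30 (adjusted p = 0.0031, 0.00631 and 0.00786). With edgeR none of these differences was called (adjusted p = 0.0641, 0.0553 and 0.0923). Fbln2 fell by 3.46 on the log2(value + 1) scale between days 4 and 5 (SE 0.91, adjusted p = 0.00661). It was not called with edgeR (change −2.88) and was at 0 in all 6 p0-1 libraries of day 5.

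Of 20 other receptors and carriers 16 were tested. Lrp2 (megalin), an endocytic receptor that binds Shh, rose by 2.91 between NMPs and day 4 (adjusted p = 0.00237), then fell by 1.63 to day 5 and fell by 1.32 to day 6 (adjusted p = 0.000834 and 0.00617). Itga1 fell by 6.87 between NMPs and day 4, and Itga4 was higher in pMN than in p0-1 by 4.93 (adjusted p = 0.00386). Neither was called with edgeR (adjusted p = 0.0557 and 0.341) or with DESeq2 (0.592 and 0.0929). Of 26 matrix enzymes and inhibitors 23 were tested. Timp3, a matrix-bound protease inhibitor, was higher than in p0-1 in p3 by 3.71 (SE 0.72, adjusted p = 0.000657) and in pMN by 3.16 (SE 0.72, adjusted p = 0.00644), with 88.4 to 448 reads in p0-1 on day 5 and 586.4 to 4099 in p3. Adamts4 and P4ha1 fell between days 4 and 5 by changes of −1.98 and −1.73. No other gene of the 4 lists was called in the 14 comparisons. Of the 24 calls in these lists, 4 held in all alternatives (Vtn in p3 against p2 and p0-1, Timp3 in p3 against p0-1 and Lrp2 between days 4 and 5), and 15 ended with some library left out. Calls ended most often for Col12a1 in p2 (22 of 74 alternatives) and pMN (20 of 74) against p0-1 and for Fbln2 (18 of 73). Next were Timp3 in pMN (16 of 75) and Lrp2 between days 5 and 6 (15 of 74). How often the calls of all genes ended was not counted, so these counts are descriptions.

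In the limma fit of all libraries, 30 of the 45 tested genes were called in 0 of the 14 comparisons. Under some alternative 13 of them were called, 9 with DESeq2 and 3 with edgeR. The matching shares of all genes were not counted, so nothing particular to these genes is read from these counts. Lama5, Lamb2, Lamc1, Col11a1, Fn1, Hspg2, Agrn, Ncan, Gpc1, Gpc6, Sdc1, Sulf2, Itgav, Itga6 and Itgb1, with reads in every library, were among the 30. Itgb1 averaged 6795 ± 2365 (SD, n = 3) in NMPs and 3449 to 4617 in the cell types of days 5 and 6. Bcan, Tgfbi, Nid1, Col1a1, Col1a2, Col9a3 and Sparcl1 were also among them and were at 0 in 13 to 45 libraries each, and Nid2, Ptprz1, Col2a1, Col4a5, Col4a6, Sdc3, Gpc4 and Itga5 were at 0 in 1 to 7. Col9a3 was at 0 in all 5 p3 libraries of day 6 and averaged 35.7 to 119.6 in the other types, and over days 5 and 6 limma did not call it in p3 against any type while DESeq2 called it lower against each.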

How the data were processed

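RNA of sorted cells was amplified with SMART-Seq HT and sequenced (CaTS-RNA-seq). The authors aligned reads with STAR in the nf-core pipeline to mm10 with ERCC sequences and counted refGene genes with featureCounts, leaving out duplicates; its use of strand is not given in the sources used here. They removed libraries on quality. The deposited table holds a normalised signal, reads divided by 1 factor per library, so that 100.0% of 834400 values above 0 came out as whole reads within 0.01. Per-library totals ranged from 7615114 to 13484815 recovered reads. No 2 libraries were identical.

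Values were tested as log2(value + 1) with limma 3.58.1 (trend; R 4.3.3) over 13964 genes with a mean of at least 10, with 1 mean for each of 25 groups in 65 libraries. A change is a difference of group means averaged with equal weight. A call needed an adjusted p (Benjamini-Hochberg, over all genes tested) below 0.01 and a change above 2-fold. The study states no expression test, and these are its accessibility thresholds. Alternatives used other pseudocounts, filters and scalings, a replicate block, array weights, the compared libraries alone, edgeR 4.0.16 and DESeq2 1.42.0 on recovered reads, an adjusted p below 0.05 without a fold, each library left out, and, chosen after seeing the data, day 5 alone.

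For each comparison, called genes were named up to 6 per direction, or the 3 with the lowest adjusted p where fewer than 3 were called, besides the highest gene per role; others are named to account for all 47. The rule for the 47 genes uses names alone, but genes and lists were chosen with earlier results of these data known. A few genes of the lists are not reported here and enter no list's sum or count. Sequences are from RefSeq (GRCm38.p6). Scripts were tested on simulated data.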

Additional observations from a re-analysis of the deposited data

How the results depend on the processing

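Of 3770 values of the named genes under the alternatives, 3691 kept their direction and side of the threshold, 61 lost their call, 18 gained one and 0 changed direction. Most alternatives left out 1 of the 65 libraries. A library outside a comparison can move its adjusted p but not its change, and the looser threshold cannot end a call. The share kept is therefore partly fixed in advance and is no measure of stability. DESeq2 called 9 genes between p3 and pMN, 10 between p3 and p2, 12 between p3 and p0-1, 2 between pMN and p2, 4 between pMN and p0-1, 4 between p2 and p0-1, 9 between days 6 and 5, 1, 4, 2 and 4 for SAG in p0-1, p2, pMN and p3, and 5 in the interaction. It also called more of all genes (424 for SAG in p0-1, where edgeR called 1). Fits of the compared libraries alone called 1, 3 and 3 genes in p3 against pMN, p2 and p0-1, and 2 between pMN and p0-1. An adjusted p below 0.05 with no fold threshold gave 5 genes for p3 against pMN, 11 for p3 against p0-1, 2 each for pMN and p2 against p0-1, 17 for day 5 against 4, 8 for day 6 against 5 and 1 in the interaction. Array weights gave 11 genes for day 4 against NMPs, 5 for day 6 against 5 and 1 in the interaction. A pseudocount of 10 gave 6 for day 5 against 4, and edgeR 5 for day 6 against 5, beside 94 of all genes. Day 5 alone gave 0 for p3 against pMN and 1 against p2. For alternatives other than DESeq2 and edgeR, all-gene counts are not given, here or below. Nothing particular to the matrix genes is therefore read from those counts. The cause of these differences was not tested.

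With 1 library left out, 1 to 4 genes were called for p3 against pMN (1 without day 6 p3 (500 nM) replicate 3), 4 to 6 against p2, 4 to 7 against p0-1, 0 to 1 for p2 against p0-1, 5 to 8 for day 4 against NMPs, 2 to 5 for day 5 against 4 (5 without day 5 p0-1 (10 nM) replicate 3), 2 to 5 for day 6 against 5 (5 without day 6 p2 (100 nM) replicate 2) and 0 to 1 for SAG in p3.

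With the replicate number as a block the counts were 3, 6, 5, 0, 1 and 0 between cell types, 7, 4 and 3 in time and 0 in the others, so only day 5 against 4 differed, from 3. Deviations of same-numbered libraries had correlations from −0.036 to 0.165, and in 8 of the 14 comparisons every number correlated best with its own. The study sorted cell types from the same dish, but no source used here states that a number marks 1 differentiation in every group. Groups of at most 3 libraries left some SEs above 1 on the log2 scale for genes with few reads (Nid2 for SAG in pMN, SE 1.103).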
